A study of Drosophila melanogaster with 6 samples.

Results

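The genes described here are 10 components and targets of the JAK-STAT pathway of Drosophila melanogaster, taken by name from the 15391 rows of a table of gene counts. They are the ligands upd3 and upd2, the receptor dome, the kinase hop, the transcription factor Stat92E, the inhibitors Socs36E and Ptp61F, and the genes TotC, vir-1 and chinmo, which are known as targets of the pathway in some tissues. All 10 were matched to a row. RNA was sequenced from dissected adult midguts of 2 groups, each with 3 libraries. In the knockdown (Rab11_KD), an RNA interference construct against Rab11, a small GTPase of recycling endosomes, was driven by Myo1A-Gal4, which is active in enterocytes, the absorptive cells of the gut. The controls were labelled wild type (WT), and the labels name no driver or other allele for them. Both groups were moved from room temperature to 29 °C 5 days after eclosion and were kept there for 5 days, so the heat is shared by the controls.

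JAK-STAT signalling begins with a secreted cytokine of the unpaired (Upd) family, which binds the receptor Domeless. The receptor-bound kinase Hopscotch then phosphorylates Stat92E, which enters the nucleus and switches on its targets. Socs36E is one such target, and its product dampens the pathway in a feedback loop. In the adult midgut, stressed or damaged enterocytes are known to make Upd3, and progenitor cells respond to it by dividing and differentiating.

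Levels are given as CPM, each gene's reads as a share of its library, after TMM scaling for library composition. Library totals ran from 9818914 to 33082790 counts, and the deepest in each group was replicate 3. These 2 libraries also stood apart from the other 4 on the second principal component, which held 30.9% of the variance. Rab11 itself was at 64.4, 78.2 and 78.7 CPM in knockdown replicates 1, 2 and 3, and at 319, 270 and 219 CPM in the wild type. The labels call the cells enterocytes, but whole midguts were dissected, and RNA of other cell types was present. All 6 enteroendocrine markers (pros, Tk, npf, Ast, Ast-C and Mip) were higher in the knockdown by the test described below, and their summed level was 501 to 671 CPM there and 164 to 201 CPM in the wild type. Of 6 stem cell and enteroblast markers, Dl and Sox21a were higher, and the summed level was 118 to 125 against 37.4 to 73.2 CPM. Much of that rise was Sox21a, at 52.1 to 58.0 against 2.93 to 8.40 CPM. The rest, esg, Su(H), klu and HLHmbeta, did not pass and overlapped between the groups, with klu at -0.44 on the log2 scale. The part of these shifts in the results was not tested. In RNA of a whole organ, more cells of a type and more RNA per cell cannot be told apart. None of the 6 enterocyte, 6 visceral muscle, 6 hemocyte, 6 fat body, 4 tracheal and 3 Malpighian tubule markers passed the test, though only 2 hemocyte and 3 fat body markers had enough counts for it. The enterocyte markers summed to 10960 to 44610 CPM in the knockdown against 40010 to 82050 CPM in the wild type. They went both ways, from -1.68 for betaTry to 1.025 for mex1 on the log2 scale. The 6 markers of hemocytes, blood cells that can make Upd3, summed to 5.59 to 7.04 CPM in the knockdown against 2.93 to 7.86 CPM in the wild type, and eater and He were at 0 in 5 of the 6 libraries.

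The cytokine upd3, the feedback inhibitor Socs36E, the phosphatase Ptp61F and the stress peptide gene TotC rose in the knockdown. The receptor, the kinase and the STAT factor, through which the signal runs, did not pass the test. Changes were tested for all 8377 genes with enough counts with the quasi-likelihood test of edgeR, and called at a Benjamini-Hochberg adjusted p under 0.05. Across all these genes 16.7% were called, 9.05% as higher and 7.63% as lower. Of the 10 JAK-STAT genes 9 had enough counts, of which 4 were higher and none lower. None was lower in DESeq2 or at an unadjusted threshold of 0.05 in edgeR either. This count is a description, since upd3 and TotC reached the count minimum through the knockdown libraries, where they are high. With no minimum, the median log2 fold change was 0.63 over the 10 genes and 0.03 over all genes.

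**Figure D1:**
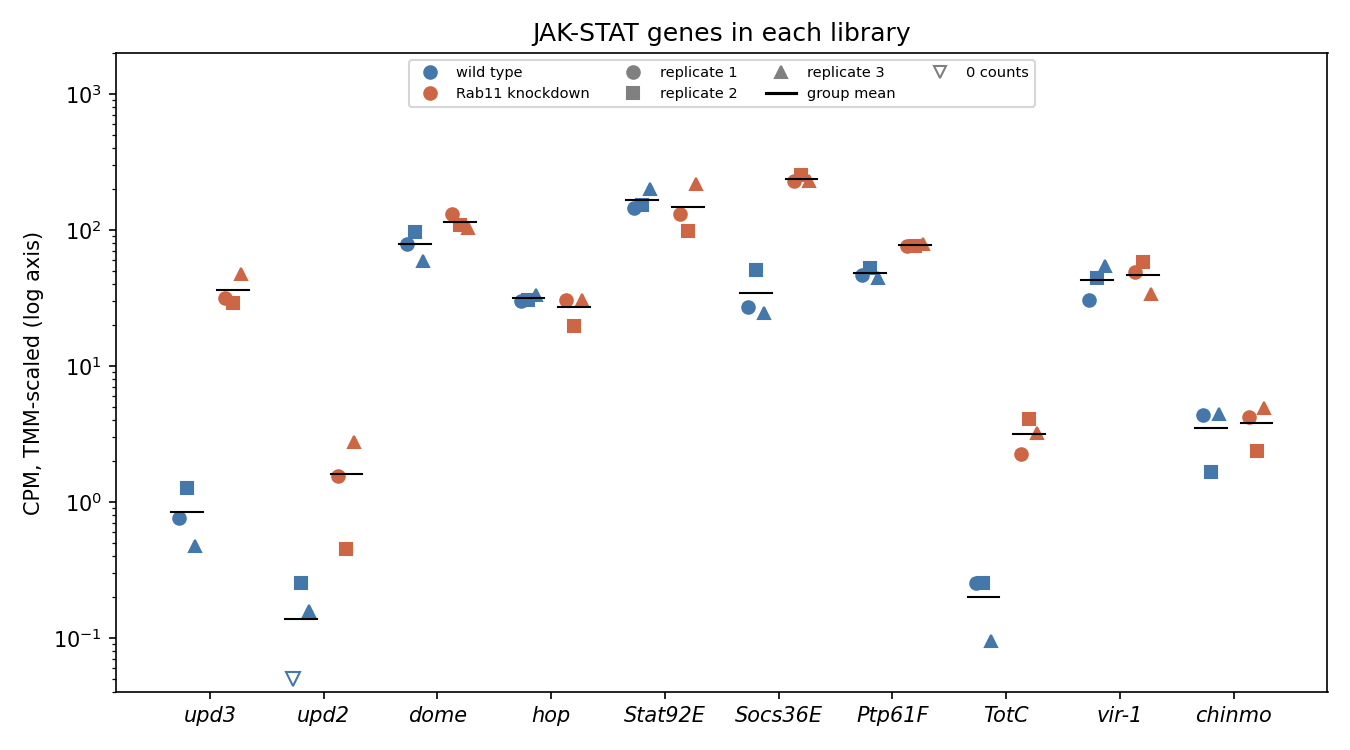
CPM of the 10 JAK-STAT genes in each of the 6 libraries on a log axis, wild type in blue and knockdown in orange, with replicates by symbol and group means as bars. The groups stand clear of each other for upd3, Socs36E and TotC, while those of hop, Stat92E, vir-1 and chinmo overlap, and upd2 had 0 counts in 1 wild-type library (open triangle at the foot of the axis).

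Among the ligands, upd3 was at 31.6, 29.2 and 47.7 CPM in knockdown replicates 1, 2 and 3, and at 0.762, 1.27 and 0.472 CPM in the wild-type libraries. Every knockdown library was far above every wild-type library, and the wild-type values rest on 6, 10 and 15 counts. The rise was 5.58 ± 0.43 on the log2 scale (SE, adjusted p = 0.00181), with a 95% interval of 23.8-fold to 95.8-fold. Of the 8377 genes tested 0.107% had a larger log2 fold change. Same-numbered libraries gave log2 ratios of 5.37, 4.52 and 6.66. The deep replicate 3 pair thus gave the largest ratio, with both the highest knockdown and the lowest wild-type value.

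The second ligand, upd2, which is best known as a signal from the fat body, was much scarcer than upd3. Its counts were 22, 4 and 132 in the knockdown against 0, 2 and 5 in the wild type, which is 1.56, 0.452 and 2.76 CPM against 0, 0.255 and 0.157 CPM. The groups did not overlap, but knockdown replicate 2 lay close to the wild type. With these counts upd2 fell under the minimum. Over the libraries of a group it had 158 counts against 7, a ratio of 15.2 after scaling (7.19 to 38.3 at 95% by an exact binomial interval, for counting error alone). In an edgeR fit with no minimum its log2 fold change was 3.50 ± 0.98 (SE, adjusted p = 0.0541). It passed when the replicate number entered that fit as a block (log2 fold change 3.61, adjusted p = 0.00208) and in DESeq2 (3.49, adjusted p = 0.00834). The use of a block with no minimum was chosen after seeing the data. Without knockdown replicate 3, and with no block, upd2 was at 2.77 with an adjusted p of 0.142. Over all genes, the share called higher was 4.77% with no minimum, 11.7% when the block was added to it, and 10.6% in DESeq2.

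The first ligand of the family, upd1, appears in the table under its older name os and is not among the 10. It had 8, 5 and 10 counts against 1, 3 and 2 in the wild type, and was not past the threshold with no minimum (log2 fold change 1.34, adjusted p = 0.527). Per kilobase of exon, upd3 made up 93.6%, 97.0% and 93.6% of the summed level of the 3 ligands in the knockdown libraries. In the wild type its share was 89.4%, 69.6% and 68.1%, at a summed ligand level of 0.384, 0.824 and 0.312 CPM per kb. These wild-type shares rest on few reads, with upd3 at 6, 10 and 15 counts and upd2 at 0, 2 and 5. The summed level in the knockdown was 15.2, 13.5 and 23.0 CPM per kb. The upd1, upd2 and upd3 genes lie close together on chromosome X, where upd1 is the next protein-coding gene after upd3 and only CG15059 stands between upd3 and upd2 in the Release 6 assembly.

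The receptor dome was at 130, 108 and 104 CPM in the knockdown and at 79.0, 97.0 and 58.8 CPM in the wild type. The 3 knockdown libraries were all above the wild-type ones, though knockdown replicate 3 and wild-type replicate 2 were near each other. Groups that do not overlap, with the knockdown higher, were seen for 20.2% of all genes tested. The log2 fold change of dome was 0.55 ± 0.23 (SE, adjusted p = 0.157), with a 95% interval of -0.0031 to 1.09. It passed when libraries were scaled by their totals alone (1.01, adjusted p = 0.0427), a scaling that moves the median of all genes up to 0.47.

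The kinase hop was at 30.5, 19.7 and 30.4 CPM in the knockdown and at 30.2, 30.4 and 33.2 CPM in the wild type. Knockdown replicate 2 was low and the other 5 libraries lay close together. Its log2 fold change was -0.22 with a 95% interval of -0.73 to 0.30 (adjusted p = 0.554), or 0.602 to 1.23 as a fold. With library totals alone the upper limit was 2.19-fold. Stat92E, the transcription factor, was at 131, 98.0 and 216 CPM in the knockdown and at 144, 152 and 199 CPM in the wild type. The replicate 3 library was the highest in each group, and the groups overlapped throughout. The log2 fold change of Stat92E was -0.15 with a 95% interval of -0.90 to 0.60 (adjusted p = 0.792). For both genes the sign turned when libraries were scaled by their totals alone (0.26 for hop and 0.34 for Stat92E), so no direction is given.

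**Figure D2:**
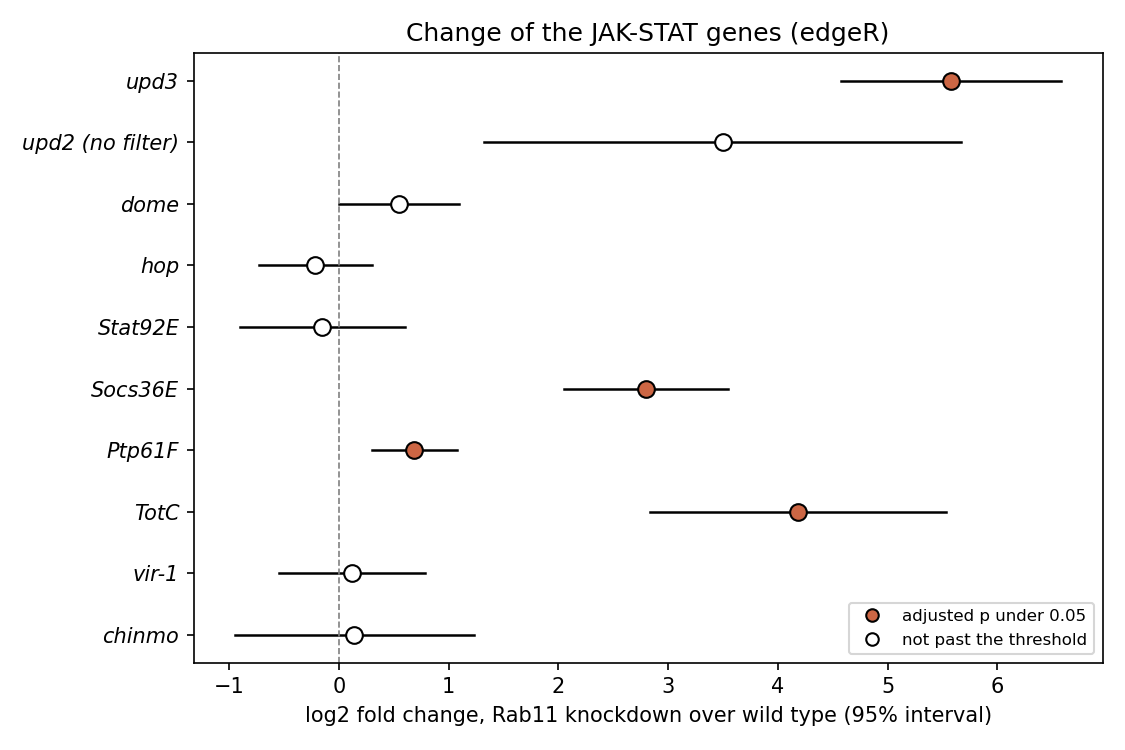
Log2 fold change of each of the 10 genes, knockdown over wild type, with its 95% interval from edgeR; filled points have an adjusted p under 0.05. The intervals of upd3, TotC, Socs36E and Ptp61F lie above 0, those of hop, Stat92E, vir-1 and chinmo span 0, and that of dome touches 0; upd2 is from the fit with no count minimum.

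Among the inhibitors, Socs36E, a suppressor of cytokine signalling, was at 228, 254 and 230 CPM in the knockdown. In the wild type it was at 27.2, 50.7 and 24.7 CPM. The knockdown libraries were tightly grouped, with a coefficient of variation of 6.29%, against 42.0% in the wild type, where replicate 2 was high. That wild-type library was also the highest of its group for upd3 and dome. The rise of Socs36E was 2.80 ± 0.32 on the log2 scale (SE, adjusted p = 0.00315), which is 6.96-fold with a 95% interval of 4.14 to 11.7. Of all genes tested 1.59% had a larger log2 fold change. Within the knockdown, the library with the most upd3, replicate 3, was not the one with the most Socs36E, which was replicate 2.

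Ptp61F encodes a protein tyrosine phosphatase that acts against both the kinase and Stat92E. It was at 76.1, 76.0 and 78.9 CPM in the knockdown and at 46.6, 52.6 and 44.6 CPM in the wild type. The groups did not overlap, and the knockdown libraries varied little, with a coefficient of variation of 2.17%. The rise was small, at 0.68 ± 0.17 on the log2 scale (SE, adjusted p = 0.0323), or 1.61-fold with a 95% interval of 1.23 to 2.10. This call was fragile. It was lost with any single library left out (adjusted p 0.0596 to 0.119, log2 fold change 0.59 to 0.76), and without both replicate 3 libraries (0.0539). With no count minimum the adjusted p was 0.062, and 0.00943 when the block was added to that fit.

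TotC is a member of the Turandot family of small secreted peptides that are made under stress, largely by the fat body. It was at 2.26, 4.07 and 3.20 CPM in the knockdown and at 0.254, 0.255 and 0.0944 CPM in the wild type, where it had 2, 2 and 3 counts. No library of one group came near those of the other. The rise was 4.18 ± 0.58 on the log2 scale (SE, adjusted p = 0.00475), and the scaled ratio of counts was 21.2 (10.1 to 53.4 by the same kind of interval). The fat body markers Lsp2, Fbp1 and Fbp2 were all under 1 CPM in every library. The yolk protein genes Yp1 and Yp2 and the lipophorin gene Rfabg, also on that list, differed widely between libraries, and the summed level of the list was 175 to 816 CPM in the knockdown and 5.08 to 238 CPM in the wild type. The part of this spread in the rise of TotC was not tested.

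The other members of the family had few reads. TotA had 3, 1 and 80 counts against 0, 0 and 3 in the wild type, TotM had 18, 3 and 48 against 0, 1 and 4, and TotF had 0 in all libraries. TotB, TotX and TotZ had 4, 7 and 1 counts over the knockdown and 0 over the wild type. With no count minimum edgeR called TotC alone among the 6 with counts, with TotM at an adjusted p of 0.0869 and TotA at 0.136. With the replicate number as a block in that fit TotA (0.0153) and TotM (0.0235) were called too, and DESeq2 called TotC and TotM (0.0376). Over all genes, 4.77% were called higher with no minimum, 11.7% with the block added to it and 10.6% in DESeq2. The reads of TotA were nearly all in knockdown replicate 3. TotA, TotB and TotC are neighbours on 3R and similar in sequence, so reads could be split between them.

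The last pair of genes did not pass. The gene vir-1, induced by virus infection through this pathway in flies, was at 48.7, 57.9 and 33.7 CPM in the knockdown and at 30.7, 43.9 and 53.8 CPM in the wild type. The groups overlapped, and same-numbered libraries went in both directions, with log2 ratios of 0.66, 0.40 and -0.67. Its log2 fold change was 0.12 with a 95% interval of -0.54 to 0.79 (adjusted p = 0.811). The gene chinmo, which encodes a zinc finger transcription factor known as a target of the pathway in the testis, was scarce, at 4.24, 2.37 and 4.86 CPM against 4.32, 1.65 and 4.43 CPM. Replicate 2 was the lowest of each group. Its log2 fold change was 0.14 with an interval of -0.95 to 1.23 (adjusted p = 0.867), which does not bound a change to less than 2.34-fold.

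An exact permutation test of CPM, two-sided over the 6 libraries, gave p = 0.1 for upd3, upd2, dome, Socs36E, Ptp61F and TotC, the smallest p that 3 against 3 allows. It gave 0.5 for hop and 0.7 for Stat92E, vir-1 and chinmo. The smallest p is reached wherever the groups do not overlap. Over all genes tested this held for 20.2% with the knockdown higher and 17.7% with it lower.

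**Figure D3:**
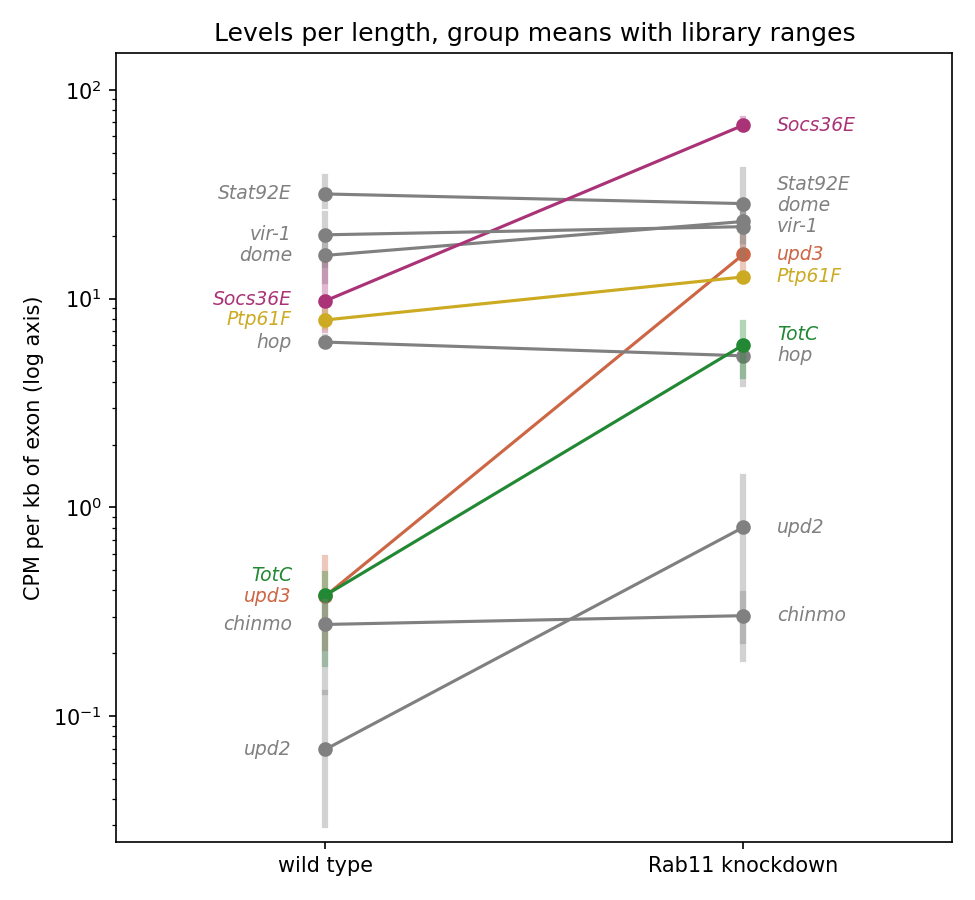
Mean level of each gene per kilobase of exon (log axis) in the wild type and the knockdown, with shaded ranges over the 3 libraries of a group (for upd2 in the wild type the range reaches 0 and is drawn from the foot of the axis). Socs36E moves from rank 4 to rank 1, from 9.75 to 67.7 CPM per kb, and upd3 from 0.376 to 16.3 CPM per kb, while Stat92E, vir-1, hop and chinmo keep nearly level lines.

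To compare levels between genes, CPM was divided by the exonic length of each gene. In the wild type Stat92E led at 31.7 ± 5.71 CPM per kb (SD, n = 3), above all libraries of the next gene, vir-1, at 20.2 ± 5.47. The genes vir-1, dome, Socs36E and Ptp61F followed in order of their means, each overlapping the next in its range. Then came hop at 6.19 ± 0.334 CPM per kb, and TotC, upd3 and chinmo, at 0.379, 0.376 and 0.275 CPM per kb, could not be ordered beyond their spread. In the knockdown Socs36E led at 67.7 ± 4.26 CPM per kb, above every library of Stat92E at 28.5 ± 11.7. The genes Stat92E, dome, vir-1 and upd3 followed, each overlapping the next, so that the ligand now lay near its receptor (16.3 ± 4.55 and 23.4 ± 2.91 CPM per kb). TotC overlapped hop, which was at 5.32 ± 1.23.

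Ratios within a library do not depend on how libraries are scaled. Per kilobase, upd3 stood to dome at 0.532, 0.591 and 1.01 in the knockdown and at 0.0212, 0.0288 and 0.0176 in the wild type. Socs36E stood to dome at 2.43, 3.27 and 3.08 against 0.479, 0.727 and 0.584. The inhibitor thus exceeded the receptor in every knockdown library and lay below it in every wild-type library. Relative to the ligand upd3, by contrast, Socs36E was lower in the knockdown. The ratios were 4.57, 5.53 and 3.05 there and 22.6, 25.2 and 33.1 in the wild type. Both genes rose, upd3 by more, and the wild-type level of upd3 rests on 6, 10 and 15 counts. Socs36E stood to Ptp61F at 5.18, 5.80 and 5.04 in the knockdown and at 1.01, 1.67 and 0.958 in the wild type, so that the inhibitors rose unequally.

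A list of 10 further genes of the pathway was described by counts. Of these 6 had enough reads, of which 2 were higher and 1 lower. Over all genes tested 9.05% were called higher and 7.63% lower. Stam, an adaptor of endosomal sorting that binds Janus kinases in mammals, rose from 118, 123 and 97.4 CPM in the wild type to 239, 304 and 225 CPM, by 1.18 ± 0.22 on the log2 scale (SE, adjusted p = 0.0140). Leaving out knockdown replicate 1 (0.0566) or replicate 1 of the wild type (0.0595) ended its call. TepII, a thioester protein of innate immunity, rose from 3.94, 8.27 and 6.10 to 15.1, 16.3 and 13.0 CPM, by 1.27 ± 0.31 (SE, adjusted p = 0.0327), a call lost in 4 of the 6 fits with a library left out (adjusted p 0.0351 to 0.116 over the 6).

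Socs16D, another gene of the SOCS family, went the other way from Socs36E. It fell from 75.4, 69.6 and 79.4 CPM to 47.5, 45.9 and 52.9 CPM, at -0.62 ± 0.17 on the log2 scale (SE, adjusted p = 0.0458). The groups do not overlap, which with the knockdown lower held for 17.7% of all genes. This call was lost with any single library left out (0.0523 to 0.178) and with upper-quartile scaling (-0.54, adjusted p = 0.0623). It was also lost with library totals alone (-0.17, adjusted p = 0.735) and with no count minimum (-0.60, adjusted p = 0.115). It held with the replicate block in the filtered fit (adjusted p = 0.0238) and in DESeq2 (adjusted p = 0.00903). Socs44A, the remaining gene of that family, stood at 0.50 (adjusted p = 0.258) and passed with library totals alone (0.93, adjusted p = 0.036). The SUMO ligase gene Su(var)2-10 was at -0.16 (adjusted p = 0.714) and the repressor gene ken at -0.10 (adjusted p = 0.794), and both turned positive with library totals alone (0.33 and 0.33). The receptor-like gene et, which lies beside dome, had 47 counts against 19 in the wild type, Diedel had 7 and 1, and TepI had 1 and 4. With upd1, these were too few for the test.

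**Figure D4:**
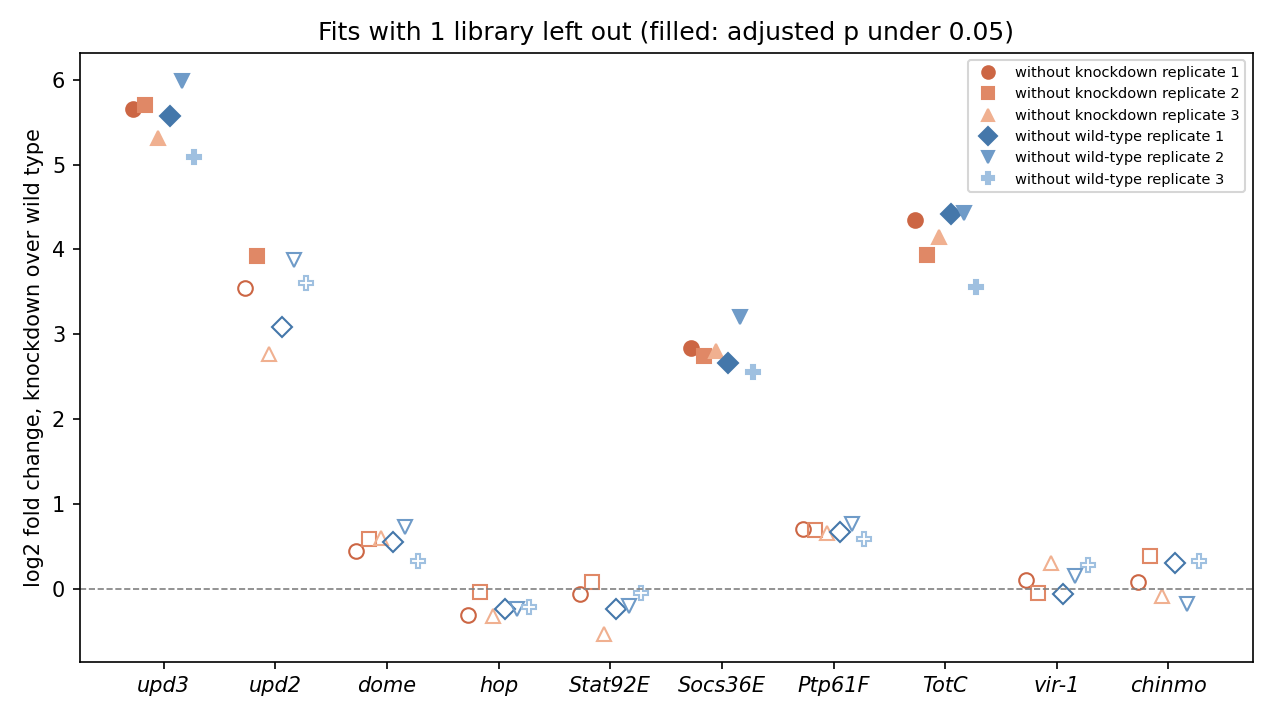
Log2 fold change of each of the 10 genes in the 6 fits that each leave out a single library (symbols), filled where the adjusted p is under 0.05. The points of upd3, Socs36E and TotC are filled in all 6 fits, those of Ptp61F in none, and that of upd2, from fits with no count minimum, in the fit without knockdown replicate 2.

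The calls of upd3, Socs36E and TotC held in all 6 fits with a library left out. The log2 fold change ranged from 5.09 to 5.99 for upd3, from 2.56 to 3.20 for Socs36E and from 3.55 (without wild-type replicate 3) to 4.42 for TotC. Without both replicate 3 libraries all 3 calls held at smaller sizes, with log2 fold changes of 4.86 for upd3 (adjusted p = 0.0014), 2.61 for Socs36E (0.00403) and 3.53 for TotC (0.0144). Those of dome, hop, Stat92E, vir-1 and chinmo passed in none of the 6. The range of Stat92E, from -0.54 without knockdown replicate 3 to 0.08 without knockdown replicate 2, was set by the library left out.

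The authors' deposited table of DESeq2 results lists 4 of the 10 genes. In the authors' deposited table upd3 has a log2 fold change of 5.10 (adjusted p = 4.69e-33) and upd2 one of 2.36 (adjusted p = 0.00462). The authors' deposited table gives Ptp61F at 0.66 (adjusted p = 0.00327) and TotC at 3.40 (adjusted p = 6.77e-08). These values carry the shrinkage of a normal prior, which pulls in the scarce genes upd2 and TotC the most.

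The genes whose pattern over the 6 libraries was most like that of 3 of the members were found by the root mean square difference of log2 CPM after centring each gene. For upd3 they were CG16959 at 0.293, mus209 at 0.517, Pen at 0.534 and rho at 0.553. CG16959 was at 72.2, 79.4 and 84.3 CPM in the knockdown and at 1.65, 3.31 and 0.755 CPM in the wild type, with wild-type replicate 2 high as for upd3. For Socs36E they were CG30154 at 0.0815, cib at 0.146, Cyp305a1 at 0.160 and CG31697 at 0.179. CG30154 was at 13.4, 15.8 and 15.1 CPM against 1.78, 2.93 and 1.38 CPM, the same order of libraries within each group as for Socs36E. For TotC they were Cht4 at 0.195, CG15210 at 0.258, CG43218 at 0.305 and RnrL at 0.306. The shared order of libraries follows from how these genes were picked.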

How the data were processed

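The authors deposited raw read counts per gene. STAR 2.4.2a, HTSeq 0.6.1, DESeq2 and build BDGP5 are named per the submitters' processing notes. Annotation, strand setting and the platform of each library (Illumina or Ion Torrent) were not stated in the sources used here. The authors' deposited comparison table holds, per its file headers, scores (DESeq2 mean count and Wald statistic), log2 fold changes with standard errors, and p-values. Its log2 values differed from a DESeq2 refit by a median of 0.00144 with a normal prior and 0.0504 without. From the counts, genes were kept by filterByExpr (minimum count 10), scaled by TMM and tested with edgeR 4.0.16 (R 4.3.3) on group alone; DESeq2 1.42.0 was an alternative. Exonic lengths and names came from a BDGP6 annotation (15204 rows matched), so no coordinates are given; no exon of the 10 genes overlaps another gene's exon except one transposon copy antisense to Ptp61F.

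The members and lists were chosen with earlier results of these data known. Named were Rab11, the 10 members, the other pathway and Turandot genes, and the 4 genes most like upd3, Socs36E and TotC. Whether replicates are separate fly pools is not stated, so p-values measure only the spread between these libraries, which may be technical; libraries of a group differed beyond sampling noise (chi-square per gene 71.5 to 401). Deviations of same-numbered libraries correlated at 0.142, 0.209 and 0.715. Knockdown replicate 1 correlated more with replicate 2 of the wild type (0.344), and knockdown replicate 2 more with replicate 1 (0.509). The same number thus gave the closest match for replicate 3 alone. Its libraries were also the deepest of their groups and stood apart on the second principal component. Whether they form a pair was not tested, and the labels state no pairing by number. The number entered only the alternative fits with a block, and ratios of same-numbered libraries are descriptions.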

Additional observations from a re-analysis of the deposited data

How the results depend on the processing

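The count of changed genes was 1397 and became 2451 with the replicate block, and 460 to 1138 with a library left out. Added to the fit with the filter, the block changed no member's call. Added to the fit with no filter, a pairing of choices made after seeing the data, it called upd2 (log2 fold change 3.61, adjusted p = 0.00208), Ptp61F (0.705, adjusted p = 0.00943), TotA and TotM, with 2967 genes changed in all. The member count of 4 was 3 in each fit with a library left out, where Ptp61F was at 0.587 to 0.761. Ptp61F also lost its call with no filter (0.702) and without both replicate 3 libraries (0.593). The count of 3 in the wider list became 0 to 2 with a library left out, and that of 1 in the Turandot family became 2 with DESeq2 and 3 with no filter and the block. The shares of all genes called higher were 10.6% with DESeq2 and 11.7% with no filter and the block. For upd2, at 3.50, the threshold was crossed with library totals alone (3.97, adjusted p = 0.04996), upper-quartile scaling (3.49) and DESeq2 (3.49), and the range was 2.77 to 3.92 with a library left out. With library totals alone dome was called at 1.01, and hop and Stat92E turned to 0.255 and 0.342. With a library left out Stat92E ran from -0.536 to 0.0772, vir-1 from -0.0631 to 0.302 and chinmo from -0.175 to 0.382. Fits with a library left out also have fewer libraries, and the cause of these changes was not tested. With TMM 54.3% of calls were higher, with upper-quartile factors 60.7% and with library totals alone 82.8%. Depth limits upd2, TotC and their families, with 0 to 10 counts in most wild-type libraries.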

Other observations

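Socs36E has no row in the authors' deposited table, although a DESeq2 refit of the same counts gave it an adjusted p of 4.20e-14. The p and adjusted p of its rows give back their ranks, which equal the position in the table for 2074 of 2450 rows, the last included. Of 860 genes with an adjusted p under 0.001 in that refit 34 have no row in it. The largest Cook's distance of a library, a measure of how far a single library pulls the fit, had a median of 1.63 over these 34 and 0.339 over the others, and was 2.04 for Socs36E. By this distance Socs36E ranked 61 among the 860 genes, so some genes with a larger value do have a row. Whether the distance set which genes are listed was not tested.

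The protein-coding genes next to the 10 members in the Release 6 assembly were also looked up. Of 19 neighbours that are no members 11 were tested. Of these 2 were higher and none lower, namely MtnD beside Stat92E, at a log2 fold change of 1.44 (adjusted p = 0.0274), and cpb beside chinmo, at 1.30 (adjusted p = 0.0155). Neither of the members they adjoin passed. The shares over all genes tested were 9.05% higher and 7.63% lower. The neighbours of Socs36E, kel and CG17681, stood at -0.39 (adjusted p = 0.547) and -0.63 (adjusted p = 0.206).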
